A study of Mus musculus with 38 samples.

Results

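Long domains of trimethylated histone H3 lysine 27 (H3K27me3) in mouse liver were examined, as the islands of the male list that span at least 100 kb from start to end and overlap an island of the female list by at least 1 bp. The islands were chosen by their width in the male list and their overlap with the female list. There were 303 such islands, of 20048 H3K27me3 islands in the male list, and they are called long islands below. They made up 1.51% of the islands, 42.6 Mb or 7.54% of the bases in islands and 1312874 of 15305301 reads in islands (8.58%). The mark had been mapped by chromatin immunoprecipitation and sequencing (ChIP-seq) in whole livers of CD-1 mice, an outbred stock, 8 weeks of age and with no treatment listed, from 3 male and 3 female libraries. For each of 6 histone marks the files of the libraries of a sex held the same list, so a list is 1 pooled measurement with no spread between animals, and no test between animals was possible. Intervals on counts and shares are exact 95% intervals (Poisson, and Clopper-Pearson for shares), those on medians are 95% order-statistic intervals over islands, and all of them cover sampling of reads, peaks or islands and not animals. The lists cover the 19 autosomes in genome build mm9. A control library of a male CD-1 mouse, 7 to 8 weeks old and made with non-specific IgG for an earlier record, supplied background reads.

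H3K27me3 is written by Polycomb repressive complex 2, whose catalytic subunit is Ezh2 or Ezh1, and the complex is known for binding CG-rich promoters of developmental genes that a tissue keeps silent. H3K4me3 marks promoters that are active or poised, and a promoter that carries it together with H3K27me3 is called bivalent. H3K4me1 lies at enhancers, H3K27ac at active promoters and enhancers, H3K36me3 over the bodies of transcribed genes and H3K9me3 over heterochromatin. Methylation of H3K36 is known to hinder Polycomb repressive complex 2 on the same histone tail. Because whole liver was used, an island with 2 opposite marks may hold both on the same chromatin or in different cells, and fewer marked cells cannot be told apart from less mark per cell.

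Promoters in long islands differed in CG content and in H3K4me3, and 2 each of 3 kinds are printed to show the sequences behind the shares given further on. Promoters came from RefSeq (build GRCm38.p6) and were placed on mm9 by reads of the IgG library that match their sequence. The 250 bases before the start site are given 5′ to 3′ on the gene's strand, with every CG dinucleotide in capitals. Hoxa5, a homeobox gene of the body axis, and Lhx2, a LIM-homeobox factor, had CG-rich promoters with an H3K4me3 peak in the male list within 1 kb of the start. Their windows are chr6:52154588-52154837 on the minus strand with 28 CG, and chr2:38206579-38206828 on the plus strand with 24 CG.
Hoxa5: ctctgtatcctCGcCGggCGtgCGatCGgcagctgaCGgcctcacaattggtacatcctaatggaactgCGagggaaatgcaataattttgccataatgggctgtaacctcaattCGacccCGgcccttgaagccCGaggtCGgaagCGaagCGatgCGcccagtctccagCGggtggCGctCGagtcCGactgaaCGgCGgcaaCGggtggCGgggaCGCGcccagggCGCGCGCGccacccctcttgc
Lhx2: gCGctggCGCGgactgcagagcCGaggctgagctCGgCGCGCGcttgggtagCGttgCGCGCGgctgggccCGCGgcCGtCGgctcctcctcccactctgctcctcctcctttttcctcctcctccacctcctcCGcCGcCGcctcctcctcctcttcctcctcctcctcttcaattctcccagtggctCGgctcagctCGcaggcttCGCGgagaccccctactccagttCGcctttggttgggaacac
Hoxa13, the homeobox gene of the posterior end of the same cluster, and Six2, a homeobox gene of kidney progenitors, were as rich in CG and had no H3K4me3 peak. Their windows are chr6:52210876-52211125 with 35 CG and chr17:86087596-86087845 with 26 CG, both on the minus strand.
Hoxa13: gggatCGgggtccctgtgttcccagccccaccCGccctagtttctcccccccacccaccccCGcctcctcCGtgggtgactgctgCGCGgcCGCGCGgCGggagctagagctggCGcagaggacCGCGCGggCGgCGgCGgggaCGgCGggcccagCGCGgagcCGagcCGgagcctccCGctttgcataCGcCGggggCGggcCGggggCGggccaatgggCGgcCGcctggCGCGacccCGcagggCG
Six2: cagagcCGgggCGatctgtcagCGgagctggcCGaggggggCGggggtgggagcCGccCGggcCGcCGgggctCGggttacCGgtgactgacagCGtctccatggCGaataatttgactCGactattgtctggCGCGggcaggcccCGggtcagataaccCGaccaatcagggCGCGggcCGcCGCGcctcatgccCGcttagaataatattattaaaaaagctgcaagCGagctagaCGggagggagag
Krt10, a keratin of the outer skin, and Clec4f, a lectin of Kupffer cells, the liver's resident macrophages, had CG-poor promoters and no H3K4me3. Their windows are chr11:99250680-99250929 with 2 CG and chr6:83606112-83606361 with 0 CG, both on the minus strand.
Krt10: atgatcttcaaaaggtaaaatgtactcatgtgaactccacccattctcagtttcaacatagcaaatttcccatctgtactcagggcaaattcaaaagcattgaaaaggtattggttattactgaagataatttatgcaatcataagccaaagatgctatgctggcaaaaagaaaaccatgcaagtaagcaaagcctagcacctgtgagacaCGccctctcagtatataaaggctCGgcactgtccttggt
Clec4f: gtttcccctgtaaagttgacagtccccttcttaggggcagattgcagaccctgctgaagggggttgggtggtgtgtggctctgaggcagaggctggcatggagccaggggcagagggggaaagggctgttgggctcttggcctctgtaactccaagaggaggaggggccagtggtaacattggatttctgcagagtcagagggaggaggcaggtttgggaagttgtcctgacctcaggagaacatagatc

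Long islands had a higher median H3K27me3 read density than all shorter islands together, though not than the narrowest ones, and the ranges overlapped throughout. Their read density in the male list had a lowest value of 24.2, a median of 29.5 (interval 28.9 to 30.2) and a highest value of 50.6 reads per kb. The 19742 islands under 100 kb had a median of 26.1 reads per kb and ranged between 18.4 and 211 reads per kb. By width the median was 31.1 reads per kb (interval 30.8 to 31.3) in the 1203 islands under 10 kb, above that of long islands. It was 26.1 reads per kb in islands of 10 to 20 kb, 25.5 in those of 20 to 50 kb, 27.1 in the 1812 of 50 to 100 kb and 33.4 in the 28 long islands of 200 kb or more. Both the width threshold and these reads come from the list that chose the islands, so the values are a description. Background moved the other way, with a median of 8.56 control reads per kb in long and 9.08 in shorter islands, and 3.93 against 4.54 IgG reads per kb. The fold over control in the authors' deposited table had a median of 1.84 in long islands, 1.49 in shorter islands and 1.71 in those under 10 kb. The IgG reads in long islands also had more G and C, at a median of 43.6% against 41.2%, and the part of base composition in read density was not tested. Female islands that overlapped the long islands held a median of 32.5 reads per kb (interval 31.8 to 33.2), while all 19020 female islands under 100 kb had a median of 27.2 reads per kb.

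**Figure D1:**
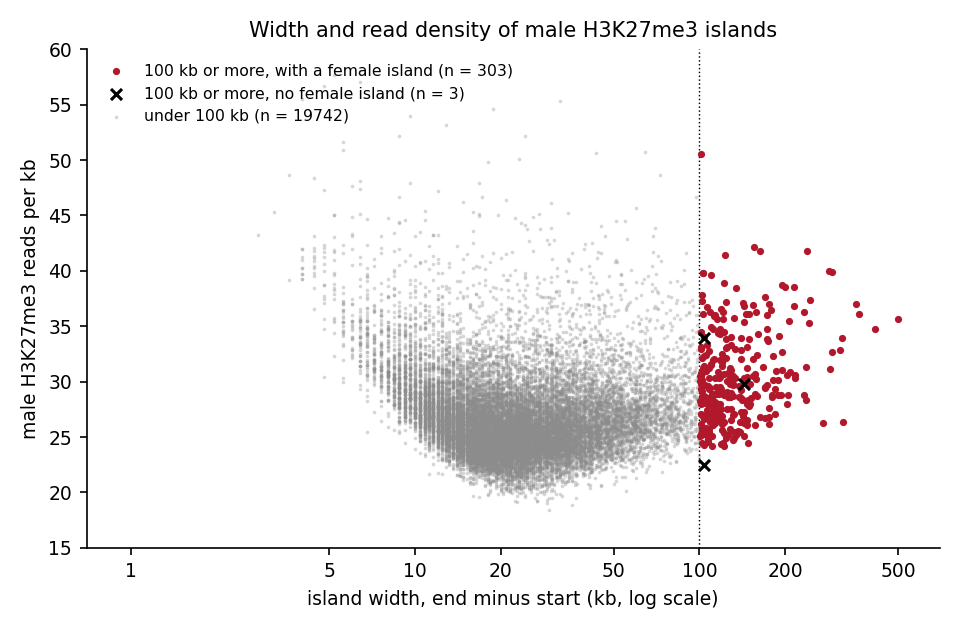
Width (end minus start in kb, log scale) against male H3K27me3 reads per kb for each male island. The 303 long islands (red) lie to the right of the dotted 100 kb line with a median of 29.5 reads per kb, the 19742 shorter islands are grey, crosses are the 3 islands of 100 kb or more with no female island, and 23 shorter islands above 60 reads per kb are outside the axis.

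Width was a sharp line through a continuous range. The narrowest long islands spanned 100399 bp between start and end, at 28.2, 30.0 and 30.5 reads per kb in 3 of them, and the widest islands just below the line spanned 99999 bp, with 25.7, 32.4 and 35.98 reads per kb in 3 of them. Long islands had a median width of 122.8 kb and a longest of 497.6 kb, and their Spearman correlation of width with read density was 0.25 over 303 islands that share the same pooled reads. Another male island lay close by, at a median gap of 3.6 kb for long and 8 kb for shorter islands, the smallest gap being 2.8 kb. In 12 long islands the neighbour within 5 kb was itself a long island, so some are pieces of one domain. The islands at chr8:11968000-12131199 and chr8:12134800-12632399, for instance, were both covered by 1 female island of 701.2 kb.

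Few start sites were placed inside the longest islands, so most are described by the genes that RefSeq lists for the stretch around them, bounded by the nearest placed promoter on either side. The longest of all, chr8:12134800-12632399, had 35.7 reads per kb in a stretch that holds Tex29, Sox1 (a factor of neural progenitors), Spaca7 and Tubgcp3. The second, chr13:45222400-45637999, spanned 415.6 kb at 34.7 reads per kb in a stretch that holds Mylip, Gmpr and Atxn1. The next, chr15:102553600-102917599, lay in a stretch with Calcoco1 and the Hoxc cluster with 36.1 reads per kb over 364.0 kb. The stretch of the fourth island, chr7:75050000-75403999 with 37.0 reads per kb, holds Pgpep1l, Fam169b and Igf1r, the receptor of insulin-like growth factor 1, which hepatocytes make little of. Of the other 6 of the 10 longest, 3 held placed start sites of known genes. They were those of Tnr (tenascin-R of brain matrix), of the Hoxa cluster, and of Gata5, Slco4a1, Mrgbp and the neurotensin receptor gene Ntsr1. The other 3 lay in a stretch with Rad23b and Klf4, in one with Galnt17 and Auts2, and in one with Tbcel, Grik4, Arhgef12, Tlcd5, Pou2f3 and Oaf. Of these 10, the Tnr island was the least dense at 26.3 reads per kb and the Hoxa island the most dense at 39.9. The highest read density of any long island, 50.6 reads per kb, was at chr18:57806000-57907599, which also had the most control reads of any long island (18.98 per kb, against a median of 8.56). Its IgG density was 10.1 reads per kb, and its fold over control in the authors' deposited table was 1.38, below the median of 1.84. The next was at chr5:102107600-102263199 over Cds1, a phospholipid synthesis gene, with 42.1 reads per kb, 9.11 control reads per kb and a fold of 2.39 in the authors' deposited table. The 5 least dense islands, between 24.2 and 24.5 reads per kb, enclosed no H3K4me3 and no H3K4me1 peak, and lay in stretches with, among other genes, Gabrb2, Rbfox1, Diras2, Chst1 and Sgcd.

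Genes of body patterning were more frequent in long islands than placed genes as a whole. Placing worked for 13798 of 25748 autosomal genes in the promoter table (53.6%), so the counts are of placed genes and not of all genes. Promoters of chromosome 18, which has 6 long islands including the densest and the most covered by H3K9me3, were not used here. Where a count is 0, the share it allows is given as 3 counts of the total. Of 60 placed genes with symbols of patterning factor families, 15 had a start site in a long island (25%, interval 14.7 to 37.9), against 116 of all 8959 placed protein-coding genes (1.29%, interval 1.07 to 1.55). They were Foxd2, Foxe3, Hoxa5, Hoxa7, Hoxa10, Hoxa11, Hoxa13, Hoxd4, Hoxd10, Irx3, Lhx2, Nkx2-1, Six2, Tbx4 and Zic4, of which the 5 Hoxa genes share 1 island, the 2 Hoxd genes another, and Foxd2 and Foxe3 another still. The interval takes genes as independent, which genes of 1 island are not. RefSeq lists 231 genes with such symbols and 20661 protein-coding genes, so a smaller part of this family was placed. Shorter islands held another 29 of the 60 (48.3%), against 1802 of all 8959 placed protein-coding genes (20.1%). Of 65 ion channel and neurotransmitter receptor genes, 4 potassium channel genes or partners (Kcna5, Kcnd3, Kcnip1 and Kcnk15) lay in long and 44 in shorter islands. None of 87 placed genes with symbols of hepatocyte families, such as apolipoproteins and cytochromes P450, lay in a long island. That count allows a share of up to 3.45% and so includes the 1.29% of all placed genes. The 87 were chosen by symbol and not by activity. A male H3K4me3 peak within 1 kb of a start was found for 49 of them (56.3%), against 62.0% of all placed protein-coding genes. Shorter islands held 11 of the 87 (12.6%), against the 20.1% of all placed genes. None of 741 placed chemosensory receptor genes, which are silent in liver, lay in a long island either (up to 0.405%), and none of 169 zinc finger genes (up to 1.78%) or 62 ribosomal and proteasome genes (up to 4.84%), limits that for the last 2 families also include 1.29%. None of 18 placed neuronal adhesion genes did, which at this number allows a share of up to 16.7%. The tissue label was checked by H3K4me3 at cell type markers. All 6 hepatocyte markers that were placed (Alb, Apoa1, Apob, Serpina1a, Fgb and Hnf4a) had a peak in both sexes and lay outside H3K27me3 islands. Of other cell types, Stab2 (endothelial), Lrat (stellate) and Epcam (cholangiocyte) had a male peak and lay in shorter islands. Lrat and Epcam had a female peak too. The Kupffer cell markers Cd68, outside islands, and Clec4f, in a long island, had no peak in either sex.

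H3K4me3 was sparser in long islands than outside islands, and its peaks there were weak. Long islands enclosed 131 whole peaks of the male list, 3.07 per Mb (interval 2.57 to 3.65), shorter islands 1884 or 3.61 per Mb (3.45 to 3.77), and the sequence outside islands 7.41 per Mb. The intervals of long and shorter islands overlap, the density was lower in long islands on 13 of 19 autosomes, and a difference between them was not shown. Islands under 10 kb held 7.33 per Mb (5.74 to 9.21), and long islands of 200 kb or more 4.36 (3.003 to 6.13). With the female H3K4me3 list the same islands held 182 peaks, 4.27 per Mb, against 4.72 per Mb in shorter islands. Of the 131 peaks, 9 ranked in the better-scoring 50% of the male list. Their median score was 120.5, against 175 in shorter islands and 1150.2 outside, and their median fold enrichment 6.45, against 7.69 and 16.2. These scores are the authors' own and rank peaks within this list. A peak of H3K27ac overlapped 49.6% of the H3K4me3 peaks in long islands, 48.5% in shorter islands and 94.4% outside. Of the strongest peaks in long islands, chr1:75517364-75519051 was at Stk11ip with a score of 2722, and chr11:61077994-61081512 at Aldh3a2, a fatty aldehyde dehydrogenase gene, with a score of 2171.

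Most long islands had no H3K4me3 peak. At least 1 was enclosed by 85 of 303 (28.1%, interval 23.1 to 33.5), and by 8.41% of shorter islands, which are smaller targets. Of the 85 islands, 59 enclosed 1 peak and 17 enclosed 2. The Hoxa island at chr6:51991600-52283199 enclosed the most, 7 male and 6 female peaks, with scores between 50.8 and 208. The stretch of the Hoxb cluster, chr11:96006000-96250399, enclosed 6 in either sex. An island in a stretch with Hao1 and Bmp2, a bone morphogenetic protein gene, enclosed 5 male and 2 female peaks, and those in the stretch of Igf1r and over Spag6 enclosed 4 each in the male list. Among the long islands, the 85 with H3K4me3 had a median of 31.3 reads of H3K27me3 per kb, the 148 with H3K4me1 alone 30.3 and the 70 with neither 26.6. Their control reads were alike, at medians of 8.47, 8.57 and 8.63 per kb.

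**Figure D2:**
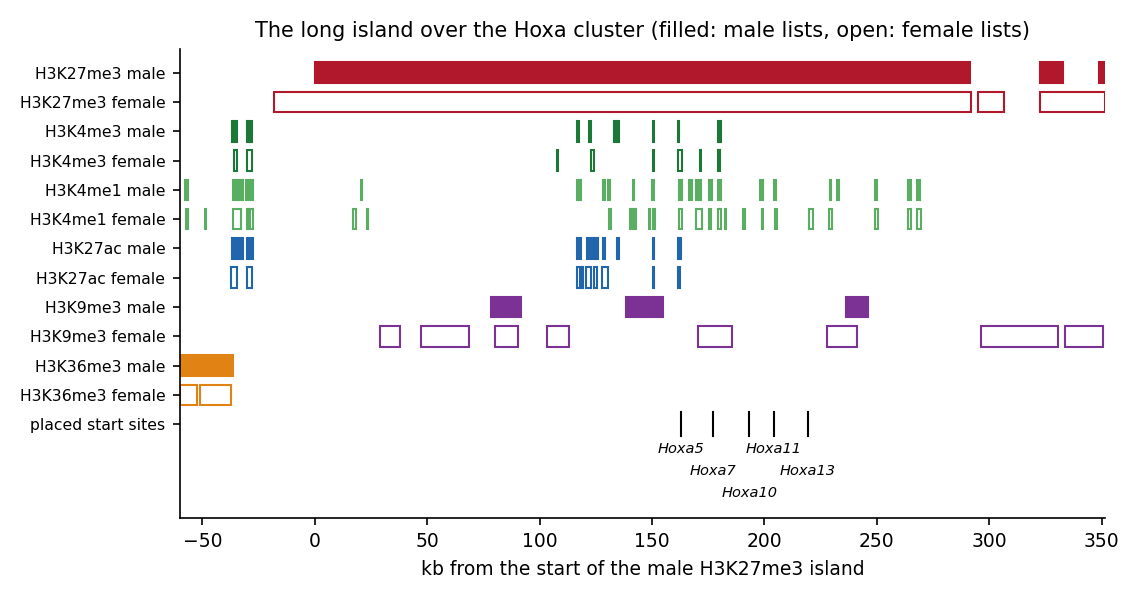
The long island over the Hoxa cluster, with the peaks and islands of all 6 marks in the male (filled) and female (open) lists against distance in kb from the island's start, and the 5 placed Hox start sites. The 7 male H3K4me3 peaks lie in the middle of the island, 1 of them at Hoxa5, and none at Hoxa7, Hoxa10, Hoxa11 or Hoxa13.

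CG-rich promoters, which nearly always carried H3K4me3 outside H3K27me3 islands, often lacked it in long and in shorter islands alike. The 126 placed protein-coding promoters in long islands (116 genes) held a median of 9.5 CG in 300 bases, those in shorter islands 7 and those outside 16. A window of 300 bases with 15 or more CG occurred in 48.1% of all protein-coding promoters of the RefSeq table, counting the letters CG, which read the same on both strands. Of 55 such promoters in long islands, 22 had an H3K4me3 peak within 1 kb of the start (40%, interval 27.02 to 54.1). The share was 47.9% of 606 in shorter islands (interval 43.8 to 51.9) and 98.3% of 4247 outside islands (97.9 to 98.7). Long and shorter islands did not differ beyond these intervals, and both lay far below the sequence outside. The female list gave 38.2%, 51.7% and 98.5%. CG-rich promoters without the peak included those of Hoxa13 (45 CG in 300 bases), Six2 (37), Gli2, a Hedgehog pathway factor (28), Aldh1a2, the main retinoic acid synthesis gene of the embryo (50), and Prok2, a secreted signalling protein (42). Promoters with the peak in both sexes included Hoxa5 (29), Lhx2 (29), Runx1, a factor of blood cells (35), and Pkm, the pyruvate kinase gene whose product hepatocytes hold little of (27). Of the 29 protein-coding promoters in long islands with a male H3K4me3 peak, 22 were CG-rich, and the others had fewer than 15 CG, such as that of Sp5 (6), a zinc finger factor. Gli2, Aldh1a2, Prok2, Runx1 and Sp5, like the 6 promoters printed above, were chosen after their values were seen. The bases printed above show the same contrast: 28 CG before Hoxa5 with a peak and 35 before Hoxa13 without one, in the same island.

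H3K4me1 was denser in long islands than in shorter ones together, but densest in islands under 10 kb. Long islands enclosed 744 peaks of the male list, 17.5 per Mb (interval 16.2 to 18.8), while shorter islands held 14.04 per Mb (13.7 to 14.4) and the sequence outside 35.3 per Mb. Islands under 10 kb held 26.4 per Mb (23.3 to 29.8) in the male and 30.4 (27.1 to 34.03) with the female list. The order of long above shorter islands together was found on 17 of 19 autosomes, and with the female list on 18 of 19, at 23.6 against 18.1 per Mb. Counting peak centres, which does not favour wide islands, gave 17.7 (16.5 to 19.004) against 14.6 per Mb (14.3 to 14.97), but for the better-scoring 50% of peaks that overlap an island the values were nearly level at 6.74 and 6.64 per Mb. At least 1 H3K4me1 peak was enclosed by 231 long islands (76.2%), and 18 were enclosed by the Hoxa island. In long islands 17.5% of these peaks overlapped H3K27ac, against 20.4% in shorter islands and 65.1% outside. H3K27ac itself had 189 peaks enclosed, 4.44 per Mb (3.83 to 5.11), against 3.91 in shorter islands (3.74 to 4.08) and 20.6 outside. Both H3K4 marks were enclosed by 83 long islands, H3K4me1 without H3K4me3 by 148, H3K4me3 without H3K4me1 by 2 and neither by 70. In 65 long islands no peak or island of H3K4me1, H3K4me3, H3K27ac or H3K36me3 was touched.

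**Figure D3:**
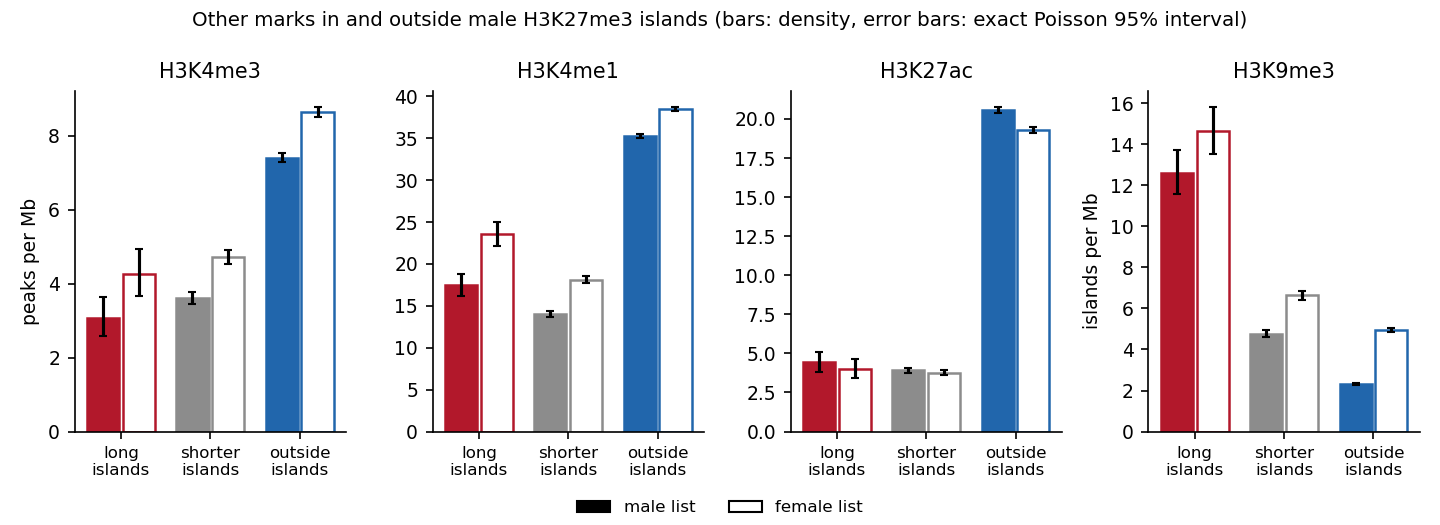
Peaks or islands per Mb of 4 other marks enclosed in long H3K27me3 islands, in shorter islands and outside islands, for the male (filled) and female (open) lists, with exact Poisson 95% intervals. H3K4me3, H3K4me1 and H3K27ac are lower in both classes of islands than outside, and H3K9me3 is highest in long islands, at 12.6 per Mb in the male list. Counting whole peaks or islands favours wide H3K27me3 islands.

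H3K9me3 islands, which mark another kind of silent chromatin, covered more of long islands than of shorter ones. The male H3K9me3 list covered 24.8% of the bases of long islands, 19.003% of those of islands of 50 to 100 kb and 14.8% of those of all shorter islands, and the female list 23.8%, 18.6% and 15.4%. A long island had a lowest share of 0%, a median of 19.3% (interval 16.8 to 21.8) and a highest of 90.7%. The centres of H3K9me3 islands fell in long islands at 13.99 per Mb (12.9 to 15.2) and in shorter islands at 8.99 per Mb (8.74 to 9.26), a comparison that does not depend on whole enclosure. Whole H3K9me3 islands were enclosed at a higher rate in long islands on all 19 autosomes, but whole enclosure favours wide islands. Counted by overlap, which favours narrow ones, the male H3K9me3 list gave 14.9 per Mb in long and 13.1 in shorter islands. The 3 long islands most covered by it were chr18:37804400-37933199 with 90.7%, chr5:112956400-113073599 over Sez6l, a brain gene, with 90.1%, and chr18:57806000-57907599, the island with the most H3K27me3 and control reads per kb, with 87.0%. H3K27me3 read density and the H3K9me3 share had a Spearman correlation of 0.0795 over the 303 islands.

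H3K36me3 was sparse inside long islands, as inside shorter ones, and lay nearer to their edges than to those of shorter islands together. It covered 0.833% of the bases of long islands, 0.663% of those of shorter islands and 0.553% of those of islands of 50 to 100 kb. With the female list these shares were 0.791%, 0.750% and 0.672%. Long islands enclosed 28 whole H3K36me3 islands (0.657 per Mb, interval 0.437 to 0.9497), and outside islands the rate was 13.2 per Mb. At least 1 bp of H3K36me3 was overlapped by 39 long islands (12.9%), and by 4.29% of shorter islands, which are smaller targets. The nearest H3K36me3 island lay at a median of 72.6 kb (interval 52.0 to 93.6) from the edge of a long island, against 103.7 kb for islands of 50 to 100 kb and 122.4 kb (119.0 to 126.2) for all shorter ones. For islands under 10 kb the median was 96401 bp (83001 to 107401), an interval that overlaps that of long islands. Within 5 kb it was found for 24.1% of long and 11.1% of shorter islands. Measured from the island's centre, the medians were 143.8 kb (126.0 to 171.0) for long and 135.7 kb (131.8 to 139.8) for shorter islands, which overlap. The shorter distance from the edge was thus not seen from the centre. A distance from the centre includes that from centre to edge, which is larger for long islands, so it cannot decide which islands lie nearer. With the female lists the medians were 81.2 and 138.0 kb from the edge, and 156.8 and 151.6 kb from the centre.

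**Figure D4:**
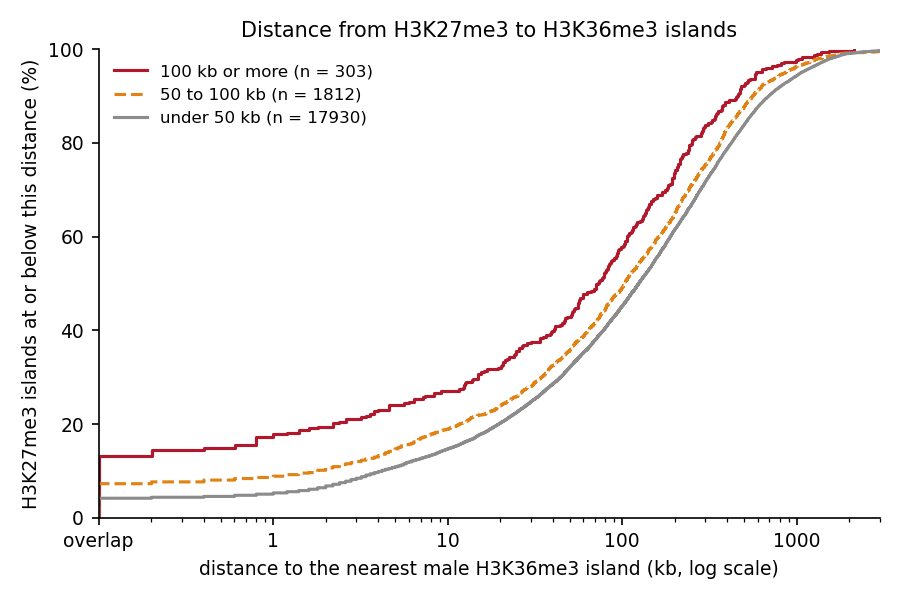
Cumulative share of H3K27me3 islands by the distance from their edge to the nearest male H3K36me3 island (kb, log scale, overlaps at the left end), for islands of 100 kb or more, of 50 to 100 kb and under 50 kb. Overlaps make up 12.9% of the long islands, and their median distance is 72.6 kb.

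Among long islands, those near H3K36me3 were denser in H3K27me3. The 39 that overlapped it had a median of 32.9 reads per kb, the 136 within 100 kb 30.4 and the 128 farther away 28.4, and Spearman's correlation of read density with distance was −0.42 over 303 islands. An H3K4me3 peak was enclosed by 46.2% of the 39 (interval 30.1 to 62.8), by 35.3% of the 136 (27.3 to 43.9) and by 14.8% of the 128 (9.18 to 22.2). Control reads did not order in this way, at medians of 8.89, 8.20 and 8.75 per kb, while the median GC content of IgG reads was 42.9%, 45.5% and 42.3%. The island over Pkm and Gramd2, chr9:59471600-59594399, was the most covered by H3K36me3 (33.4% of its bases) and had 41.4 reads per kb, 1 of the 5 highest densities. The second, chr8:12727600-12965999 over Atp11a and Mcf2l, had 25.6% and 41.8 reads per kb. The farthest island from H3K36me3, chr4:90979600-91096799 over Elavl2, an RNA-binding protein gene of neurons, lay 2149 kb away.

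Most bases of the long islands also lay in female islands, though not always in female islands as wide. Female islands covered a median of 96.6% of their bases (lowest 19.8%), all of 73 of them, at least 90% of 214 and under 50% of 9. Because the rule asked for a female island, this overlap was partly fixed by the choice, and shorter islands had a female partner in 80.2% of cases. In the authors' deposited table the log2 ratio of male over female H3K27me3 had a median of −0.051 over long islands (lowest −0.413, highest 1.36), against 0.111 over shorter islands. The sources used here do not give the normalisation of these ratios, so the sign of a small ratio cannot be read as a direction. The table called 2 long islands male (0.660%), with a background of 0.798% of all male islands called male, and 0 female, which allows a share of up to 0.990%, with a background of 0.00998%. These calls rest on the list that chose the islands and are given as a description. At an absolute log2 ratio of at least 0.5 there were 12 long islands (3.96%) in the authors' deposited table, all with more male signal, against 5.64% of all male islands. The rule removed islands without a female island, while the shorter islands and the background keep them. Of the 3 islands of 100 kb or more that it removed, 2 were called male. The shares and medians of long islands are therefore not of like sets with those of shorter or all male islands. Of the 486 female islands of 100 kb or more, the authors' deposited table called 0 in either direction (a share of up to 0.617%), with backgrounds of 0.0205% called male and 0.041% called female in the female list.

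The 2 long islands with the highest ratios were also the 2 that female islands covered least. The ratio and the coverage draw on the same pooled female reads, so they are not independent of each other. The first of these islands, chr11:29638400-29741599, lay in a stretch with, among other genes, Rtn4 and Eml6. It had a log2 of 1.36 by the authors' deposited table and 39.8 male reads per kb. A female island of 20.7 reads per kb held 19.8% of its bases. The second, chr8:91892400-92107599, in a stretch with Sall1 and Tox3, had a log2 of 1.19 by the authors' deposited table and 26.2% of its bases in female islands, over a width of 215.2 kb. Both were called male, and both enclosed H3K4me1 (5 and 4 peaks in the male list) and no H3K4me3. The next, chr5:122428800-122589199, had a log2 of 0.872 by the authors' deposited table with no call. It lay in a stretch with, among other genes, Cux2, a homeobox factor known as female-predominant in mouse liver. The island enclosed 1 male and 4 female H3K4me3 peaks. An island over Acta2 and Stambpl1, chr19:34236400-34337599, had a log2 of 0.709 by the authors' deposited table, and Acta2 encodes the smooth muscle actin of activated stellate cells. At the other end of the authors' deposited table stood the Hoxb (log2 −0.413), Hoxd (−0.379) and Hoxa (−0.362) islands, an island in a stretch with Rybp (−0.399) and chr8:11968000-12131199 (−0.372). Each of these 5 was covered by female islands over at least 98.1% of its bases, and none was called.

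**Figure D5:**
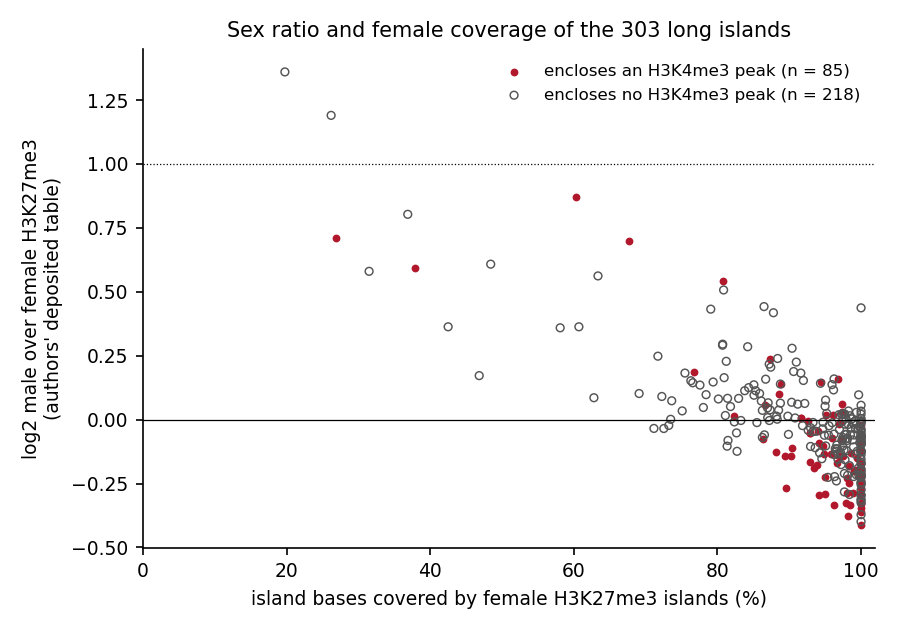
Share of each long island's bases covered by female H3K27me3 islands (%) against the log2 ratio of male over female H3K27me3 from the authors' deposited table, with the 85 islands that enclose an H3K4me3 peak in red and the 218 others open. The 2 islands above the dotted line at a log2 ratio of 1 are covered over 19.8% and 26.2% of their bases. Both axes draw on the same pooled female reads.

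Male calls among H3K4me3 peaks in long islands came at about the share over all male H3K4me3 peaks. Among H3K4me1 peaks, male calls were less frequent than over the whole list, and female calls, only 8 in number, were more frequent. Of the 131 H3K4me3 peaks in long islands, 98 overlapped a peak of the female list (74.8%), against 85.4% of those in shorter islands and 91.9% of those outside. The authors' deposited table called 5 of the 131 male (3.82%) and 0 female, which allows a share of up to 2.29%, with backgrounds of 4.46% and 0.499% over all male H3K4me3 peaks. The 5 were at chr2:74510360-74511483 in the Hoxd island, chr2:75908018-75909122, chr2:133434015-133434983 in the stretch with Bmp2, chr5:102194313-102195217 at Cds1 and chr6:87382127-87382769, where the authors' deposited table gives a log2 between 1.15 and 2.02. Of these, 2 overlapped a female peak and 1 an H3K27ac peak, and those without a female peak had scores between 51.1 and 77.7. Of the 744 H3K4me1 peaks in long islands, the authors' deposited table called 42 male (5.65%) and 8 female (1.08%), with backgrounds of 8.21% and 0.501% over all male H3K4me1 peaks. In shorter islands 7.58% of these peaks were called male and 0.532% female, and outside islands 8.33% and 0.492%, in the authors' deposited table.

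The 3 islands of 100 kb or more that the rule left out had no female island. They were chr3:150970000-151073599 near Adgrl4, chr8:11024800-11168799 near Irs2, an insulin receptor substrate gene, and chr9:23098000-23201599 in the stretch of Bmper. The authors' deposited table gives them a log2 of 0.154, 1.05 and 1.46, and the last 2 were called male.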

How the data were processed

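The data were ChIP-seq lists of 6 histone marks in male and female mouse liver and the reads of 1 IgG library. H3K4me3 and H3K4me1 had 4 male and 3 female libraries, H3K27ac had 3 of each sex, and H3K36me3 and H3K9me3 had 2 of each sex. Male and female lists differed in length, with 16018 and 18942 H3K4me3 peaks, 10875 and 17626 H3K9me3 islands, and 25517 and 19057 H3K36me3 islands. The submitters' processing notes name Bowtie, SICER 1.1 and build mm9. H3K27me3 islands were called in 400 bp windows joined across gaps of up to 2400 bp, and H3K36me3 islands in 200 bp windows with 800 bp gaps, per the labels. Read and control counts per island are raw counts deposited by the authors, with a fold ratio over control and p-values. H3K4me1, H3K4me3 and H3K27ac lists carry peak scores and fold enrichments deposited by the authors. The log2 ratios of male over female, their p-values and the calls are from the authors' deposited table, where a call needs an absolute log2 of at least 1 and a p below 0.001. Depth is given as reads inside islands, 15305301 in the male and 16904292 in the female H3K27me3 list.

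Islands, peaks and distances were computed with Python 3.11.15, numpy 2.4.6 and pandas 2.3.3, and intervals with scipy 1.17.1. A peak was enclosed when it lay whole inside an island. Promoters (250 bases before and 50 after a start, RefSeq GRCm38.p6, 18 autosomes) were placed where IgG reads of 35 bases matched them over at least 24 bases with at most 1 mismatch, at 1 position that took over 50% of their reads, in the order of the reference, which 99.0% of 15913 matched promoters kept. Interval code and placing were tested on simulated data. Regions were named as the 10 longest islands, the 5 with the highest and the 5 with the lowest read density, the 5 with the most H3K4me3 and the 5 at either end of the sex ratio, with placed genes in them, families by symbol and cell type markers. The members and lists were chosen with earlier results of these data known. Alternatives were other widths, overlap rules, sexes and score limits. Added after seeing the data were centres in place of edges or whole peaks and the H3K4me1 fold limit of 5. All alternatives for H3K9me3 and for CG-rich promoters were also added then.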

Additional observations from a re-analysis of the deposited data

How the results depend on the processing

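Of 39 alternatives, 15 left a value inside the interval of the reported one, or a count within 1.5 times of it, and 24 did not. With a minimum width of 50 kb there were 2073 islands, with 27.4 H3K27me3 reads per kb, 15.5 H3K4me1 peaks per Mb, 19.2% enclosing an H3K4me3 peak, a median of 96601 bp to H3K36me3 and a median of 14.6% of bases in H3K9me3. With 200 kb there were 28 islands, with 33.4 reads per kb, 4.36 H3K4me3 and 19.04 H3K4me1 peaks per Mb and 42.9% enclosing H3K4me3. The female list held 486 islands of 100 kb or more that overlap a male island, with 32.1 reads per kb, and 0 of them were called for sex in the authors' deposited table. An absolute log2 of 0.5 took 12 islands in place of 2. The female peak lists in the same islands gave 4.27 H3K4me3 and 23.6 H3K4me1 peaks per Mb, and 34.98% enclosing H3K4me3. The better-scoring 50% of peaks gave 0.211 H3K4me3 and 6.48 H3K4me1 peaks per Mb and 2.97% enclosing H3K4me3, as fewer peaks must, and the better-scoring 50% of H3K36me3 islands a distance of 107001 bp. H3K4me1 peaks with a fold enrichment of 5 or more gave 15.2 per Mb, against 12.1 in shorter islands. From the island centre, an alternative added after seeing the data, the distance was 143801 bp. The medians were 143.8 kb for long and 135.7 kb for shorter islands, with overlapping intervals, against 72.6 and 122.4 kb from the edge. Distances from the centre include the part inside the island, which is larger for long islands. The 4.36 H3K4me3 peaks per Mb of islands of 200 kb or more (interval 3.003 to 6.13) were above the 3.61 of shorter islands, where those of all long islands were below. At 100 kb, H3K4me3 stayed lower and H3K4me1 higher in long than in shorter islands in every list, score and overlap choice run, although 6.74 against 6.64 H3K4me1 peaks per Mb is within counting error. The score and overlap choices count the same peaks again, and a difference in H3K4me3 was not shown. The better-scoring 50% of male H3K4me3 peaks gave 0.211 per Mb (interval 0.0966 to 0.401) from 9 peaks, against 0.258 in shorter islands.

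No paired analysis was possible because the libraries of a mark and sex share 1 pooled list and carry no values of their own, so no replicate was left out either. Promoters were placed for 53.6% of genes, which limits every count of genes.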
